A study of Mus musculus with 4 samples.

Results

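Whole-genome bisulfite sequencing (WGBS) compared the brain of a Tet1 knockout (KO) embryo with that of a wild-type (WT) embryo, both from dams fed excess folic acid (FA, 30 ppm). These were 2 of the 4 libraries of the series, and both came from male embryos at embryonic day 11.5 (E11.5). Genes entered the tests by position and read depth. Of 51229 autosomal genes in the annotation, 46498 had a promoter that could be tested and 28445 had a gene body that could be tested. The other libraries, also 1 KO and 1 WT embryo, came from dams fed control FA (3 ppm) and are used here to show where the difference under excess FA recurred. All embryos were on the 129S6.cg background, with the allele Tet1<tm1Koh> in KO, and had heterozygous dams, whose diets of both kinds contained succinylsulfathiazole, an antibacterial agent that limits folate made by gut bacteria. The KO allele was made in cells of B6 origin, carries a cassette at the first coding ATG of Tet1, and was moved to this background by backcrossing. By its embryo number, the study's sample list gives the KO embryo as one with a neural tube defect and the WT embryo as normal, from different litters. The 3 ppm KO embryo also had a neural tube defect and the 3 ppm WT embryo was normal. Genotype, phenotype and litter therefore cannot be told apart in either pair. With 1 library per group no value has a replicate error, and each test below compares the reads of 2 libraries, not the conditions.

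TET1 is a dioxygenase that oxidises 5-methylcytosine, an early step in the removal of DNA methylation. The CpG-rich promoters of many genes are kept unmethylated in most cells, while gene bodies and the DNA between genes are largely methylated. The borders of unmethylated islands, often called shores, differ in methylation between tissues more than the island centres do. FA feeds the one-carbon cycle that supplies the methyl groups of DNA methylation.

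The KO library at 30 ppm covered a listed autosomal CpG with 13.17 reads on average and the WT library with 14.31, fewer than the KO (21.18) and WT (16.15) libraries at 3 ppm. No listed autosomal CpG had fewer than 2 reads, so settings below without a read minimum start at 2 reads. CpGs with at least 5 reads in both 30 ppm libraries numbered 15256830, which was 80.4% of all autosomal CpGs listed. Over these CpGs 84.23% of reads were methylated in KO and 82.44% in WT. The WGBS libraries had no oxidation step, so methylated reads here do not tell 5-methylcytosine from 5-hydroxymethylcytosine. By dot blot the paper found the latter only near background in E11.5 brains. The methylated share of mitochondrial reads, a gauge of incomplete conversion, lay between 0.9138% and 0.9376% in the 4 libraries. Expression was not measured in these embryos, and the study's mRNA sequencing of other embryonic brains was not used here. Promoter methylation could not check the tissue. Promoters of 18 neural progenitor genes, 13 of them in the high CpG class, had a median level of 2.69% in KO and 1.79% in WT, but those of mesenchyme genes were also low (7.83% and 3.17%) and those of neuron genes were at 11.8% and 6.20%. Promoters of 18 blood cell genes, 0 of them in the high CpG class, had 87.7% and 85.1%.

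To show the DNA of 4 of the largest promoter differences (Erg, Trim58, Emp1 and Cck) and of Tubb3, Aldh1l2 and Atf4, which are described later, 200 bp stretches of 7 promoters are printed on the strand of the gene, 5′ to 3′, from GRCm38. Capitals mark the CpGs that had at least 5 reads in both 30 ppm libraries. Each stretch was the one with the largest difference inside its promoter, at a minimum of 5 such CpGs and outside annotated UTRs, so its levels are a description with no test. The Erg stretch, chr16:95586623-95586822 on the minus strand, ended 30 bp upstream of the start. The Trim58 stretch, chr11:58640475-58640674 on the plus strand, overlapped an exon. The Emp1 stretch, chr6:135363135-135363334 on the plus strand, overlapped an exon 590 bp downstream of the start. Those of Cck (chr9:121496074-121496273, minus strand), Tubb3 (chr8:123410854-123411053, plus strand) and Atf4 (chr15:80254944-80255143, plus strand) were upstream of the start. That of Aldh1l2 (chr10:83533460-83533659, minus strand) lay in an intron.
Erg: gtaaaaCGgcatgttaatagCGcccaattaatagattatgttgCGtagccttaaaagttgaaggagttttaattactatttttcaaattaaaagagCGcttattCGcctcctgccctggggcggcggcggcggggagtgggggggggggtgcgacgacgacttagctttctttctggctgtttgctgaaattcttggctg
Trim58: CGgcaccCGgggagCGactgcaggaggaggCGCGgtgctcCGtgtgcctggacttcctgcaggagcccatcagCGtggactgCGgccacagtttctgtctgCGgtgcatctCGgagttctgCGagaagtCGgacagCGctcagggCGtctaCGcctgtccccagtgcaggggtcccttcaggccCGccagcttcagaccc
Emp1: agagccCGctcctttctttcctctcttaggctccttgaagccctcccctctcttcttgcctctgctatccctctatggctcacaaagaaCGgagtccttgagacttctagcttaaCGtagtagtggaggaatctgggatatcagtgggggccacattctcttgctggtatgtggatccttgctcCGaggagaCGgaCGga
Cck: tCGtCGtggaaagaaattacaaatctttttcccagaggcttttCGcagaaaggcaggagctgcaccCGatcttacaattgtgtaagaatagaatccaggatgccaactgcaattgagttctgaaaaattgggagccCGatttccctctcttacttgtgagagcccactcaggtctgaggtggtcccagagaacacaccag
Tubb3: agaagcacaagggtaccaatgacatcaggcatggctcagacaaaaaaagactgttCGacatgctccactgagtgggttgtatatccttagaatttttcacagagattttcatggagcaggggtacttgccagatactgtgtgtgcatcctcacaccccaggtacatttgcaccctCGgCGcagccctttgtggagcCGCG
Aldh1l2: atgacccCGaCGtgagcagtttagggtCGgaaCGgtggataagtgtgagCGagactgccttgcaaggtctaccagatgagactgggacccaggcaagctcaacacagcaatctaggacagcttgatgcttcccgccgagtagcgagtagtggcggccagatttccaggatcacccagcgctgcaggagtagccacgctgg
Atf4: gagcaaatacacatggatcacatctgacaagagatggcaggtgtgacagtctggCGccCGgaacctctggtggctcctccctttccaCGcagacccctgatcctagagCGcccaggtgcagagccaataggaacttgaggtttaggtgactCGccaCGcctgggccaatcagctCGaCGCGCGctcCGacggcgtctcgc
In the Trim58 stretch all 16 CpGs were measured, with KO at 81.2% and WT at 4.17% over 96 reads each. A read was counted there at each CpG it covered. Under 3 ppm KO was at 71.6% and WT at 8.05%. The Emp1 stretch had 85.9% in KO and 18.1% in WT, and its levels in the 3 ppm libraries were 60.7% and 21.7%. In the Erg stretch 5 of 12 CpGs were measured, and KO had 76.5% where WT had 26.5%. The unmarked CpGs of the Erg stretch lay in the GC-rich run next to the start and were too thinly covered. The Cck stretch had 75.7% in KO and 27.7% in WT. The Tubb3 stretch had 28.9% in KO against 5.56% in WT, and that of Aldh1l2 had 31.8% in KO. The Atf4 stretch went the other way, with 16.1% in KO and 30.2% in WT, over 118 and 63 reads.

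The Tet1 gene itself differed little. Its annotated promoter window (chromosome 10, 62907996 to 62909996, minus strand) had a level of 91.5% in KO and 91.2% in WT over 16 CpGs, a difference of 0.272 percentage points (points below; 95% Newcombe interval -4.88 to 5.08). Its gene body had 88.6% in KO and 85.4% in WT over 1008 CpGs, a difference of 3.20 points that was below the 10 points required for a call. DNA methylation does not show whether the gene was disrupted, so this is no check of the genotype. Only the outermost annotated start of each gene was used, and the paper reports a short Tet1 isoform from a downstream start. The level of the window is therefore not that of every Tet1 start.

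Promoters, here 1 kb on each side of the annotated start, were higher in KO far more often than lower. At an adjusted p under 0.05 in Fisher's exact test and a difference of at least 10 points, 4373 promoters (9.40%) were hypermethylated in KO and 105 (0.226%) hypomethylated. Among promoters of protein-coding genes, 2830 of 19312 (14.7%) were hyper and 53 (0.274%) hypo. The shift was not limited to called promoters, as the median difference over all promoters was 2.44 points and 71.4% had a higher level in KO. The median over hyper promoters was 15.1 points, from a median level of 33.8% in WT to 52.6% in KO. A difference of 20 points or more was reached by 979 of them and 30 points or more by 164. Between libraries of the same genotype but different diets, fewer promoters were called: 132 hyper (0.281%) and 148 hypo (0.315%) at 30 ppm between the WT libraries, and 193 (0.409%) and 238 (0.505%) between the KO libraries. The KO and WT libraries at 3 ppm gave 8.37% hyper and 0.301% hypo promoters. These pairs also differ in litter. A read counts at each CpG it covers, so counts within a promoter are not independent. With only CpGs at least 500 bp apart, and a minimum of 3 of them, 13 hyper and 0 hypo promoters passed while the median difference was 2.47 points; this setting leaves fewer CpGs and reads per promoter, and the part of dependence in the lost calls was not tested.

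The position of the difference depended on the CpG content of the promoter. In the high CpG class methylation was lowest close to the start. KO had 6.36% and WT 5.57% in the 200 bp bin centred 100 bp downstream, a difference of 0.792 points, and the lowest WT value was 5.42% at 300 bp downstream. The difference grew to 6.88 points at 700 bp upstream and to 8.55 points at 900 bp downstream, where levels were 36.0% in KO and 27.4% in WT. At 4900 bp upstream it was back to 2.94 points. The largest differences of this class thus flanked the start on the slopes between low and high methylation, and the downstream slope had the larger peak. The 3 ppm libraries had the same shape, with 1.06 points at 100 bp downstream and 7.06 points at 900 bp downstream. In the low CpG class the single peak lay at the start, with 4.29 points at 100 bp downstream against 2.24 and 1.87 points in the outermost bins. These profiles pool the reads of all protein-coding genes of a class and have no test.

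**Figure D1:**
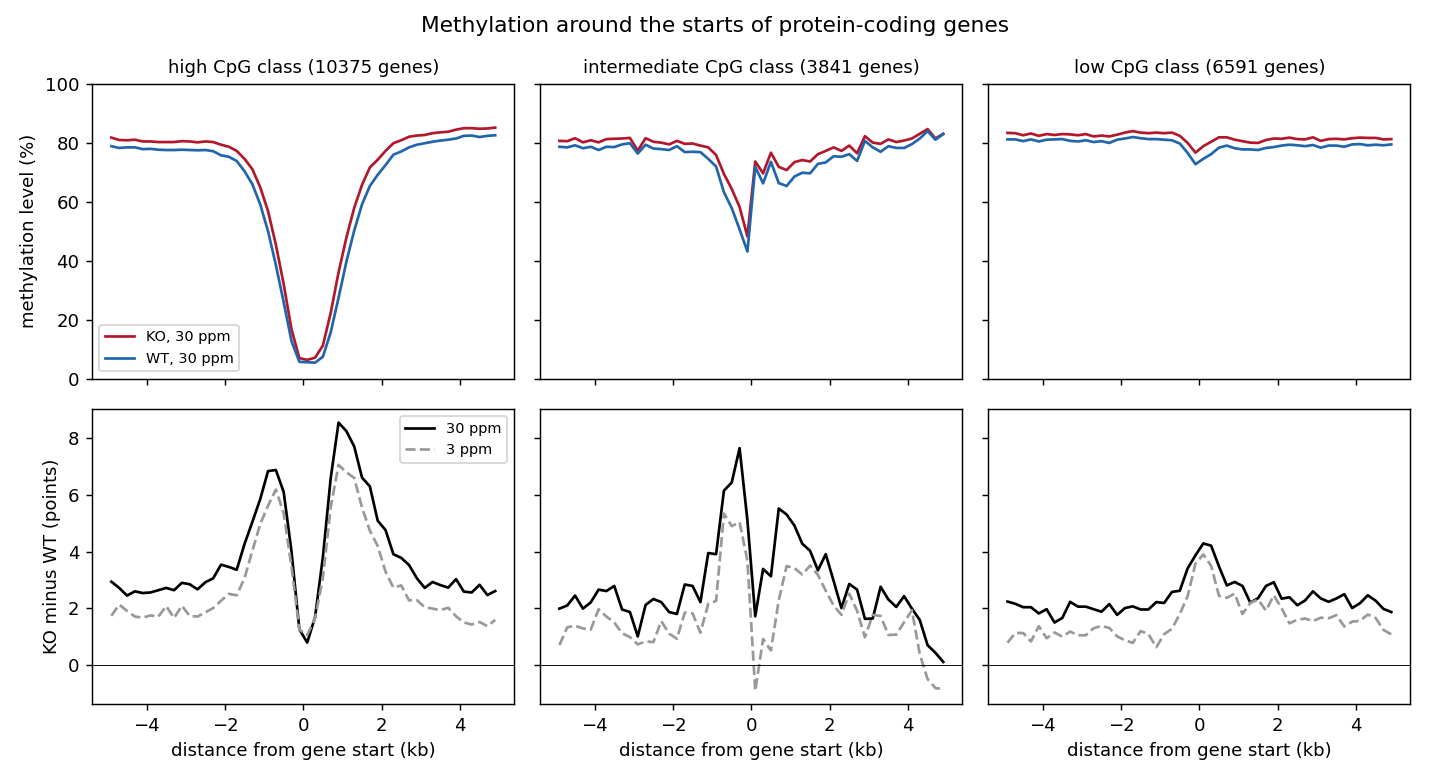
Methylation level (top, percent) and KO minus WT difference (bottom, percentage points) in 200 bp bins by distance from the start of protein-coding genes, in kb, for the high, intermediate and low CpG classes. Red and blue lines are the KO and WT libraries at 30 ppm, black the difference at 30 ppm and dashed grey that at 3 ppm; in the high class the difference has peaks on both sides of the start (6.88 and 8.55 points at 30 ppm) and a trough at it.

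By class, 1618 of 10116 high CpG promoters were hyper, 22.6% of 3742 intermediate and 6.71% of 5454 low CpG promoters, with median differences of 4.28, 5.23 and 2.40 points. The high class was the least completely read: a median of 27.9% of the CpGs in the window met the read minimum, against 61.4% in the intermediate and 85.7% in the low class. In dense promoters the values therefore describe the covered CpGs and not the whole island. Among the 32746 promoters with at least 50% of their CpGs measured, 1951 (5.96%) were hyper. Grouped by the level in the WT library at 3 ppm, which took no part in the comparison, promoters between 10% and 50% methylation were hyper most often (24.2%, median 6.52 points). Those under 10% were hyper in 9.87% of cases and those over 80% in 1.60%. Promoters of antisense RNAs (11.5%) and lincRNAs (9.08%) lay near the background of all promoters, while processed pseudogenes (2.48%) lay below it. The share ranged from 7.64% on chromosome 12 to 12.2% on chromosome 11, so hyper promoters were spread over all 19 autosomes.

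The largest differences were found in genes of several unrelated functions. The promoter of Erg, a transcription factor of endothelial cells (chromosome 16, 95585593 to 95587593), had 72.5% in KO (211 reads) and 24.5% in WT (155 reads). The difference was 48.0 points with an interval from 38.3 to 56.3, and 15 of its 16 measured CpGs were higher in KO and none lower. Trim58, an E3 ubiquitin ligase of red cell precursors (chromosome 11, 58639465 to 58641465), had 74.0% in KO and 29.9% in WT, a difference of 44.1 points (35.7 to 51.5). Its difference was concentrated just downstream of the start, where WT was nearly unmethylated, and 31 of 35 CpGs were higher in KO. The Trim58 CpGs had a median of only 6 reads in KO and 6 in WT. Emp1, which encodes an epithelial membrane protein (chromosome 6, 135361545 to 135363545), had 80.5% in KO and 39.0% in WT, a difference of 41.4 points (33.3 to 48.8). Most of it lay away from the start, since a window of 500 bp on each side gave 8.94 points.

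Cck, the gene of the neuropeptide cholecystokinin (chromosome 9, 121494694 to 121496694), had 73.1% in KO (338 reads) and 33.1% in WT (290 reads), an interval of the difference from 32.5 to 46.8 points. No CpG of this promoter was lower in KO, and 27 of 28 were higher. Receptors, channels and enzymes followed. Agtr1a, a receptor of angiotensin II, had 57.8% in KO and 19.5% in WT. Trpv4, a cation channel opened by osmotic stress, had 71.1% and 33.8%. Clcn4, a chloride and proton exchanger, had 43.5% and 4.76%, and Rem1, a small GTPase that restrains calcium channels, had 68.4% and 32.7%. Galnt18, of a family of glycosyltransferases, had 55.8% in KO and 15.9% in WT. Arhgef15, a guanine nucleotide exchange factor of vessels, had 62.0% and 25.6%. Pdlim4, Fam163a, Urah, H2-Ke6 and Rit2 completed the 15 largest, with differences between 37.5 and 39.5 points. Adjusted p-values of these 15 in Fisher's exact test ran from 8.23e-21 to 0.000136. A read counts at each CpG it covers, so these p-values overstate how far the reads differ, and they do not measure variation between embryos.

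**Figure D2:**
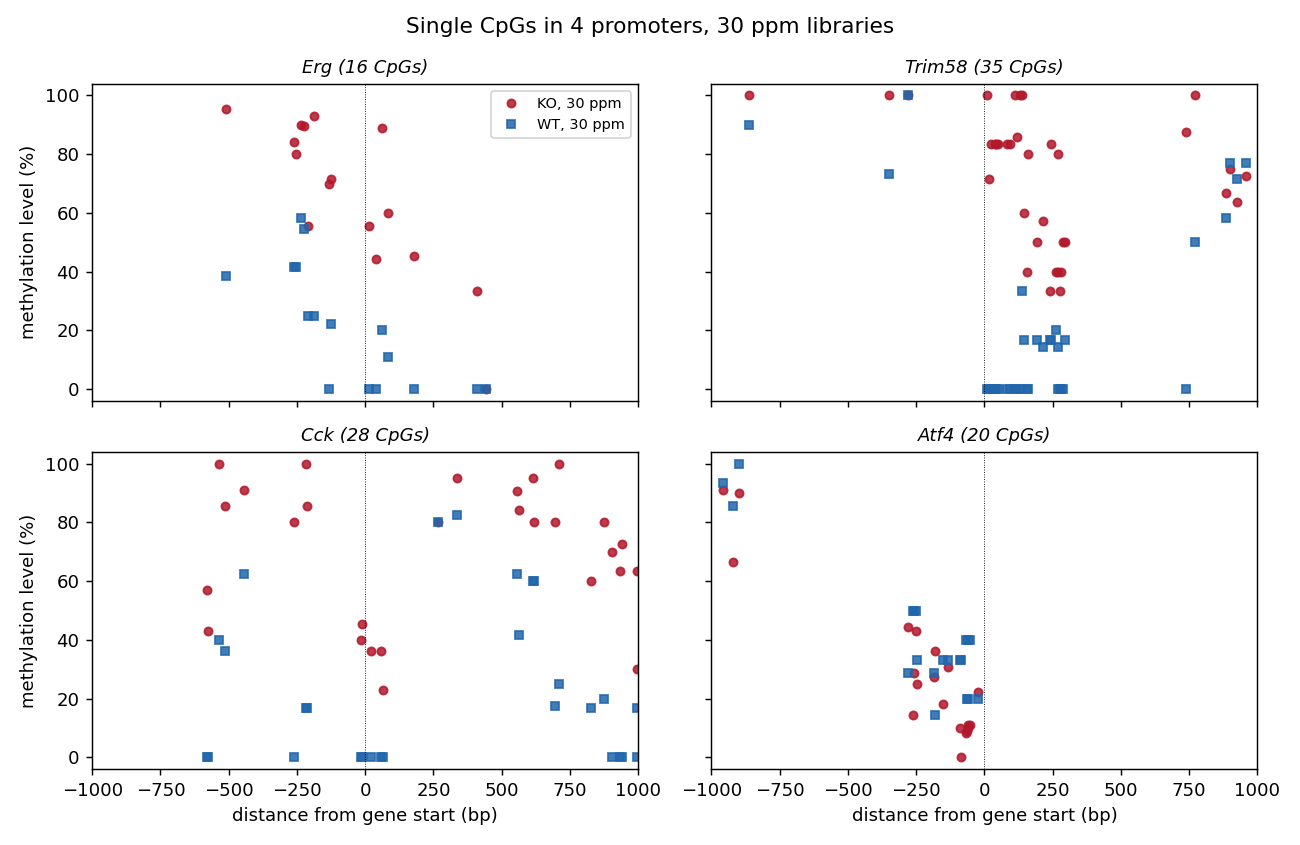
Methylation level (percent) of single CpGs with at least 5 reads in both 30 ppm libraries against distance from the gene start in bp, in the promoters of Erg, Trim58, Cck and Atf4. Red circles are KO and blue squares WT; KO is higher at 15 of 16 CpGs in Erg, 31 of 35 in Trim58 and 27 of 28 in Cck, and lower at 17 of 20 in Atf4.

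The 3 ppm libraries were not used to choose these promoters. Over shared CpGs, those with 5 reads or more in every library, all 15 were higher in KO than in WT by at least 10 points at 3 ppm as well. For H2-Ke6 this rested on 13 of 98 CpGs, and over the CpGs covered at 3 ppm it had 18.5% in KO (617 reads) and 20.2% in WT (516 reads). For Trim58 the 30 ppm libraries had 73.5% (KO) and 28.2% (WT), and the 3 ppm libraries 73.0% and 22.7%. Those for Cck were 72.3%, 33.6%, 75.4% and 24.3% in the same order. Erg had 72.5% in KO against 24.7% under 30 ppm, but 56.8% against 36.6% under 3 ppm. The difference was 27.6 points smaller under 3 ppm and passed the Wald test of the reads of the 4 libraries at an adjusted p under 0.05. Galnt18 likewise had 55.2% against 17.3% under 30 ppm and 42.9% against 25.8% under 3 ppm, 20.8 points less. For both genes KO was lower and WT higher at 3 ppm than at 30 ppm.

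**Figure D3:**
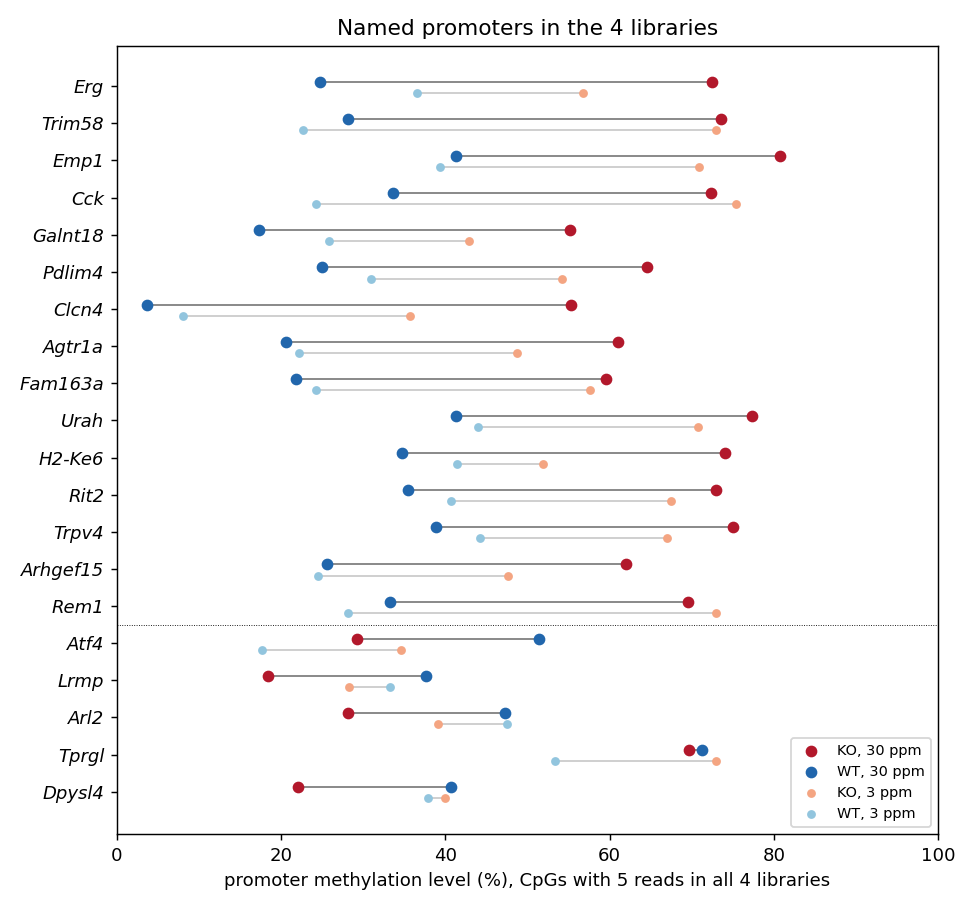
Promoter methylation level (percent, horizontal axis) in the 4 libraries for the 15 hypermethylated and, under the dotted line, the 5 hypomethylated promoters with the largest differences, over shared CpGs. Large points are 30 ppm (red KO, blue WT) and small points 3 ppm (orange KO, light blue WT); over these CpGs all 15 upper promoters are higher in KO in both diets.

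Across all 4373 hyper promoters, 4371 were tested at 3 ppm and 1838 of them (42.0%) were called hyper there, where the background was 8.43%. The direction was the same in 92.2%, against 64.2% of all promoters. Over shared CpGs the hyper promoters had a median difference of 15.4 points under 30 ppm and of 10.4 points under 3 ppm. The members were selected for a high value at 30 ppm, so the smaller median at 3 ppm is not evidence of a diet effect. The test of the difference between diets called 284 of 46146 promoters (0.615%) as larger at 30 ppm and 160 (0.347%) as larger at 3 ppm. These counts fell to 119 and 54 with all libraries thinned to equal depth. Of the hyper promoters, 188 were among the former and 4 among the latter.

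The promoters with the largest excess under 30 ppm included those of Clpb, a mitochondrial chaperone, and Stx11, a syntaxin of immune cells. Over shared CpGs Clpb had 59.8% in KO against 33.0% under 30 ppm, and 38.8% against 44.9% under 3 ppm. Stx11 had 55.5% against 28.1%, and 47.9% against 50.2%. In both the WT library was lower at 30 ppm than at 3 ppm and the KO library was higher.

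Hypomethylated promoters were few. Atf4, a transcription factor of the stress response (chromosome 15, 80254184 to 80256184), had 29.2% in KO (192 reads) and 51.4% in WT (142 reads), a difference of -22.2 points (-32.3 to -11.6). Under 3 ppm the same 20 CpGs had 34.6% in KO and 17.7% in WT, so the WT libraries had the highest and the lowest of the 4 levels. Only 20 of the 128 CpGs of this dense window were read deeply enough, and without a read minimum the difference was -4.09 points. Lrmp had 18.4% in KO and 37.7% in WT, with 28.3% and 33.2% at 3 ppm over the same number of CpGs. Arl2, a small GTPase of tubulin folding whose window is shared with Batf2, had 27.3% and 45.7%. With each CpG weighted equally the Arl2 difference was -0.439 points, and that of Tprgl changed from -17.6 to 4.23 points. Dpysl4, of a family of axonal proteins, had 20.8% and 38.1%, or -0.296 points with equal weights. Of the 105 hypo promoters, 3 (2.86%) were hypo at 3 ppm, where the background was 0.301%, and 57.1% were higher in KO there, against 64.2% of all promoters.

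Gene bodies, taken without the promoter window, differed in the same direction but by less. Hyper bodies numbered 915 (3.22%) and hypo bodies 23 (0.0809%), and the median difference over all bodies was 1.85 points. Of protein-coding bodies 3.02% were hyper and 0.0424% hypo, and at 3 ppm 2.88% and 0.0588% of all bodies. Calls fell with length: 13.4% of protein-coding bodies under 5 kb were hyper, 3.71% between 5 and 20 kb, and 0 of 2366 over 100 kb, where the median was still 1.67 points. For genes with a high CpG promoter the tenth of the body nearest to the promoter differed by 3.30 points and each of the others by 1.73 to 1.95 points. Genes with a hyper promoter had a median body difference of 2.27 points (2736 genes), against 1.91 points over all 18001 genes with both values, and 122 of them had a hyper body, where 550 of the 18001 did.

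The bodies with the largest differences were those of short genes, among them developmental signals. Eva1b had 80.3% in KO and 30.3% in WT over 20 CpGs (chromosome 4, 126147744 to 126149875), a difference of 50.1 points (38.4 to 59.7). Gja4, which encodes a connexin of vessels, had 81.0% and 47.3%. Fzd1, a Wnt receptor, had 60.7% and 30.1% over 71 CpGs with 754 and 850 reads. Dkk1, a secreted Wnt inhibitor, had 69.1% in KO and 39.1% in WT. Cartpt, a neuropeptide gene, had 61.6% and 30.9%. Foxi2, a forkhead factor, had 75.1% and 42.5%. The 3 ppm libraries gave 66.1% and 30.2% for Eva1b, 43.1% and 24.6% for Fzd1, and 72.1% and 44.2% for Dkk1, each over the CpGs covered at that diet. Among the hypo bodies Ccdc177 was the best covered, with 70.9% in KO and 81.8% in WT over 100 CpGs.

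Gene families were described by how many of their promoters were called, beside 14.7% for all protein-coding promoters. Of 44 lists, 24 were above that share, 43 had a median difference above 0 and 19 had one above the 3.86 points of all protein-coding promoters. Most listed families are protein-coding, so the 9.40% of all promoters is the lower yardstick. Families of neurotransmitter receptors and potassium channels had high shares. Of GABA and glycine receptor genes 8 of 21 (38.1%) were hyper, and of genes matched by name as glutamate receptors 8 of 25 (32.0%). Amine receptor genes had 13 of 48 (27.1%) and potassium channel genes 24 of 87 (27.6%). Between the 3 ppm libraries 8 GABA and glycine, 9 glutamate and 13 amine receptor promoters were hyper, and 30 of potassium channels. Those counts are over the CpGs covered at that diet. These families were not selected for use in neurons, and the list of neuron markers had 2 of 15 (13.3%). The glutamate list holds Grina, Grid2ip and the antisense RNA Grin1os, which are not receptors, and without them 6 of 22 (27.3%) were hyper. The Grina call rested on 9 of 88 CpGs and its difference was -5.90 points without a read minimum. Calcium and sodium channel genes had 6 of 36 (16.7%), and 13 were hyper between the 3 ppm libraries. With at least 10 reads per CpG the glutamate share was 15.4%, against 13.7% of protein-coding promoters, and the calcium and sodium channel share was below the latter. With each CpG weighted equally and no test, 44.4% of the calcium and sodium channel genes differed by 10 points or more, KO higher, against 16.7% of protein-coding promoters. Where at least 50% of the CpGs were measured the glutamate share was 0 and the amine receptor share 14.3%, against 10.2%. Over all protein-coding promoters the share was 24.2% where the WT library at 3 ppm had a level between 10% and 50%, and 31.4% for the intermediate CpG class in that range. Glrb, a subunit of the inhibitory glycine receptor, had 70.7% in KO and 44.5% in WT. Grin2c, a subunit of the NMDA receptor, had 57.5% and 32.1%. Htr2a, a serotonin receptor, had 34.0% and 9.36% over 39 CpGs, and Chrm3, a muscarinic acetylcholine receptor, had 29.6% and 7.80%. Kcng4, a modifier subunit of potassium channels, had 50.8% and 18.7%, and Kcna5, a voltage-gated potassium channel, had 47.1% and 15.4%.

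Synaptic vesicle and active zone genes were hyper in 15 of 47 cases (31.9%), and 15 were hyper between the 3 ppm libraries. Syt2, a calcium sensor of vesicle release, had 41.7% in KO and 13.4% in WT, and Rims1, an active zone scaffold, had 51.8% and 21.7%. Tubb3, a tubulin of neurons, had 53.4% and 20.2% in a list of neuron markers of which 2 of 15 were hyper, Tubb3 included. Only 15 of the 82 CpGs of the Tubb3 window were measured, all between -947 and -372 bp from the start. Its values therefore describe the upstream flank and not the start itself. In windows of 2.5 kb on each side the share of that list was 31.2%, above that of protein-coding promoters in the same windows. The share of all promoters there, 7.77%, was lower than that of protein-coding promoters. In the neural progenitor list 2 of 18 were hyper, Fabp7 with 27.3% in KO and 12.7% in WT, and Prom1 with 60.3% and 47.0%. Over shared CpGs in the 3 ppm libraries Fabp7 had 20.5% in KO and 21.8% in WT, and Prom1 had 51.5% in both. The test of the difference between diets did not call them.

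Signalling families of the embryo were also above the 14.7%. FGF genes and receptors were hyper in 7 of 22 cases (31.8%), Sonic hedgehog genes in 5 of 16 (31.2%), Notch genes in 5 of 19 (26.3%), BMP and TGF-beta genes in 12 of 54 (22.2%) and Wnt genes in 11 of 54 (20.4%). Their median levels in WT lay between 10.1% (Wnt) and 19.4% (FGF). Among high CpG promoters 21.3% were hyper between 10% and 50% in the WT library at 3 ppm, and 9.13% under 10%. The Wnt median lay close to the border of these groups. Of the 54 tested promoters in each list, 42 of Wnt and 37 of BMP and TGF-beta were in the high class. Neither share is therefore a matched background for these lists. The Sonic hedgehog share was 8.33% at a minimum of 10 reads, where that of protein-coding promoters was 13.7%, and 0 where at least 50% of the CpGs were measured. Between the 3 ppm libraries 2 Sonic hedgehog and 2 Notch promoters were hyper. The list medians there were 2.45 (Sonic hedgehog) and 2.60 points (Notch), beside 9.69 and 8.53 points in the main comparison. Each pair was summed over the CpGs it covered and not over shared CpGs, so these values do not measure a change with the diet. The other lists had 6 (FGF), 14 (BMP and TGF-beta) and 11 (Wnt) hyper promoters there. Disp1, which releases hedgehog ligands, had 70.4% in KO and 51.7% in WT, but 7.30 points and no call at a minimum of 10 reads. Ptch1, the hedgehog receptor, had 34.6% and 16.7%. Heyl, a target of Notch signalling, had 62.4% and 33.9%. Its difference over shared CpGs was 25.0 points larger at 30 ppm than at 3 ppm, and that of Wnt8b, a Wnt ligand of the forebrain, 16.7 points larger. Wnt2 had 32.1% in KO and 7.73% in WT, and Dkk3, of the Dickkopf family, had 56.1% and 27.8%. Acvrl1, a BMP receptor of vessels, had 48.2% and 18.7%, and Fgfr3 had 25.8% and 1.85% over 7 CpGs.

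Genes with H2 symbols, of the major histocompatibility region, were hyper in 10 of 27 cases (37.0%). One of them, H2-Ke6, encodes a hydroxysteroid dehydrogenase, and without it 9 of 26 (34.6%) were hyper. H2-Q6 (chromosome 17, 35423850 to 35425850) was the best covered, with 48.6% in KO (1182 reads) and 16.2% in WT (950 reads) over 81 CpGs. Its levels were 43.3% and 15.8% at 3 ppm over shared CpGs. Near-identical class I genes can share reads, so the assignment to H2-Q6 is uncertain. Endothelial and mural genes were hyper in 5 of 16 cases (31.2%), Erg among them, with Tagln, a smooth muscle protein, at 90.8% and 59.2% and Cspg4, a pericyte proteoglycan, at 72.0% and 46.5%. Acta1, the actin of skeletal muscle, had 63.4% and 30.8%. Collagen genes were hyper in 10 of 40 cases, with Col7a1 at 60.3% and 31.1%. Among markers of other cell types, beside the 14.7%, hyper promoters numbered 4 of 18 for blood, 4 of 21 for heart, 4 of 30 for skeletal muscle (13.3%) and 2 of 17 for mesenchyme (11.8%). The blood share was 22.2%, but 6.25% at a minimum of 10 reads, against 13.7% of protein-coding promoters. Cell composition was not measured, and its part in these differences was not tested.

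For the folate and one-carbon list 8 of 39 promoters were hyper (20.5%) and none hypo. The share was 11.4% at a minimum of 10 reads and 12.8% in windows of 2.5 kb on each side, which was in neither setting above the share of protein-coding promoters (13.7% at 10 reads). Aldh1l2, the mitochondrial formyltetrahydrofolate dehydrogenase (chromosome 10, 83533140 to 83535140), had 62.0% in KO (653 reads) and 37.5% in WT (584 reads), a difference of 24.5 points. Over shared CpGs its difference was 14.5 points larger at 30 ppm than at 3 ppm in the Wald test, at an adjusted p under 0.05. Slc19a1, the reduced folate carrier, had 58.9% and 40.4%. Ggh, which trims the glutamate tail of folates, had 52.9% and 35.0%. Genes needed for closure of the cranial neural tube were hyper in 5 of 39 cases (12.8%), a share under the protein-coding background. Vangl2, a planar cell polarity protein, had 46.4% in KO and 30.9% in WT. Fzd6, a Frizzled receptor of the same pathway, had 34.7% and 20.9%, and Amt, of the glycine cleavage system, had 74.1% and 60.6%. At a minimum of 10 reads none of these 3 was called, and their differences were 13.1, 1.56 and 9.10 points. The share of the list was then 3.57%. Of 20 DNA methylation genes 2 were hyper, Tet2 with 18.4% and 5.19% and Uhrf2 with a difference between 3.87 and 20.4 points by its interval (9.32 points and no call at 10 reads).

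Several large families showed few calls. Hox genes were hyper in 1 of 38 cases (2.63%), with median levels of 5.35% in KO and 3.09% in WT, and the called gene was Hoxd1 (23.2% and 3.09%). Its window is shared with the start of Haglr. Replication-dependent histone genes had 0 of 62 and clustered protocadherin genes 0 of 56, with a median difference of -1.13 points for the latter. Olfactory receptor genes had 5 hyper of 810 (0.617%) and vomeronasal receptor genes 3 of 174, with median levels above 79% in both libraries. Apart from the clustered protocadherins, whose median levels were 49.5% and 51.3%, these families lay at the ends of the methylation range, where hyper calls were less frequent over all protein-coding promoters too. The Hox and histone shares were still below that of protein-coding promoters under 10% in the WT library at 3 ppm. That share was 9.87%, or 9.13% in the high CpG class. Ribosomal protein genes had 3 hyper and 2 hypo of 79, the latter Rps25 (15.8% in KO and 28.7% in WT) and Rpl21 (37.8% and 50.2%). Germline genes were hyper in 4 of 43 cases, with Sycp2l, a synaptonemal complex gene, at 86.8% and 59.2% in a window where 53 of 55 CpGs were read. At a minimum of 10 reads its difference was 9.69 points and the call was lost. Imprinted genes were not among those with few calls and were hyper in 9 of 56 cases (16.1%), beside the 14.7%, and hypo in 4, where 0.274% of protein-coding promoters were hypo. In gene bodies the proneural bHLH list had the highest share, 8 of 25 (32.0%), with median levels of 23.1% in KO and 9.88% in WT, beside 3.02% of protein-coding bodies and 13.4% of those under 5 kb.

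**Figure D4:**
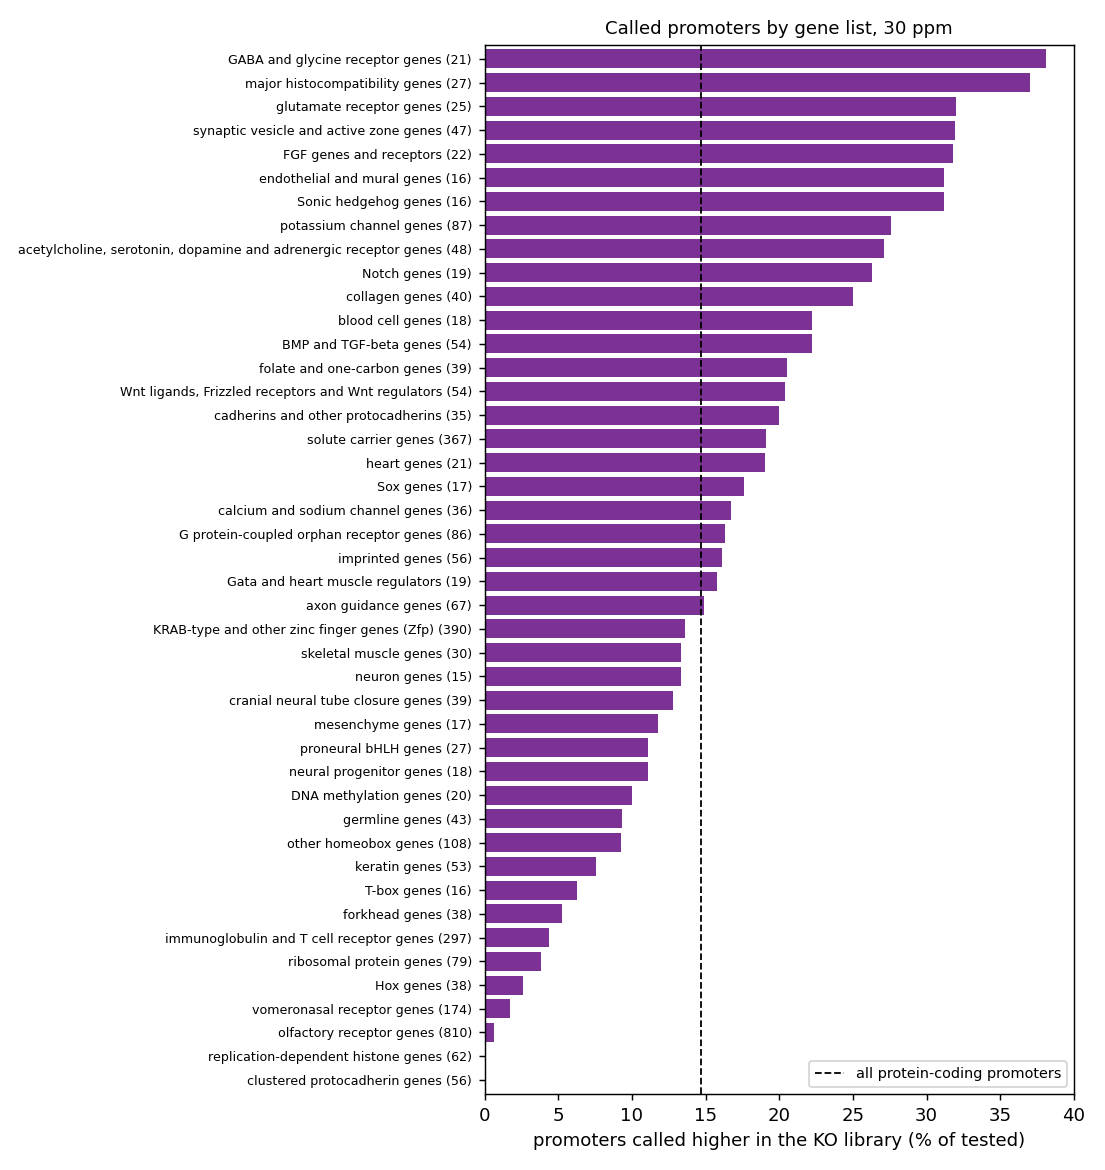
Share of tested promoters called hypermethylated in KO at 30 ppm (percent, horizontal axis) for each of the 44 gene lists, with the number tested in brackets. The dashed line is the share among all protein-coding promoters (14.7%); GABA and glycine receptor genes are highest at 38.1%, and histone and clustered protocadherin genes are at 0.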

How the data were processed

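Reads were trimmed by the authors with Trim Galore (0.6.10), aligned with Bismark (0.23.1) to GRCm38.p6, deduplicated and summed over both strands of a CpG. The deposited fraction is the share of methylated reads (0 to 1) and the deposited count is the number of reads, not normalised. The product of both lay within 4.37e-11 of a whole number and was rounded to methylated reads. All 19795530 positions lay on a CG of GRCm38. Reads were summed over autosomal CpGs with at least 5 reads in both libraries, per promoter (1 kb on each side of the GENCODE M21 gene start, at least 5 CpGs) and per gene body (without that window, at least 10 CpGs). Fisher's exact test (two-sided, Benjamini-Hochberg over all features) called features at an adjusted p under 0.05 and 10 points. A Wald test of the change in log odds ratio (0.5 added to every cell) compared the diets over CpGs with 5 reads in all 4 libraries. Levels have Wilson and differences Newcombe 95% intervals, which cover counting error only. They are too narrow where reads span several CpGs, and reads carry no molecular identifiers.

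High CpG promoters held a 500 bp window with an observed over expected CpG ratio above 0.75 and GC content above 0.55, and low ones none above 0.48. The promoters named were the 15 hyper and 5 hypo with the largest difference (protein-coding, at least 10 CpGs), up to 3 called per gene list, Tet1, and 3 in each direction of the diet test; of gene bodies, 8 hyper and 4 hypo with at least 20 CpGs. The members and gene lists were chosen with earlier results of these data known. Some genes that met these rules are not reported here. No set test was run. The tests were checked on simulated counts, drawn independently with equal levels in all libraries outside planted changes. That check cannot show false calls from reads shared between CpGs or from variation between embryos. The deposited lists of differentially methylated regions hold positions from the authors' own comparisons and were not used. Alternatives were other read minimums, windows, weights, depth, spacing of CpGs, a robust z value and the removal of CpGs that resemble strain variants. Computation used Python 3.11.15 with numpy 2.4.6 and pandas 2.3.3.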

Additional observations from a re-analysis of the deposited data

Results flagged for a closer look

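Named promoters whose KO minus WT difference changed with the diet, by the Wald test on reads over shared CpGs, are given as the difference at 30 ppm minus that at 3 ppm, in points. A larger difference at 30 ppm was found for Clpb (32.8), Stx11 (29.7), Erg (27.6), Heyl (25.0), Galnt18 (20.8), Slc28a3 (17.5), Wnt8b (16.7) and Aldh1l2 (14.5). A lower value at 30 ppm was found for Atf4 (-39.2), Vtn (-29.8), Pink1 (-29.3), Rps25 (-22.3) and Rpl21 (-13.2). Clpb, Stx11, Atf4, Vtn and Pink1 were named for this difference, so their values are a description. The others were selected by their difference at 30 ppm, which favours a value further from 0 at that diet in the direction of the call. With 1 embryo per group the difference cannot be told apart from variation between litters.

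The X chromosome was outside the comparison above. Of 1450 X-linked promoters tested, 13 (0.897%) were hyper and 2 hypo in KO at 30 ppm, with a median difference of 2.10 points. At 3 ppm 53 of 1989 (2.66%) were hyper, with a median difference of 0.553 points. The autosomes were read more deeply at 3 ppm than at 30 ppm, and depth on the X chromosome of these male embryos was not compared. The counts therefore cannot be set against those of the autosomes or between the diets.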

How the results depend on the processing

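No paired analysis was possible because each group had 1 library, and no library could be left out. The excess of hyper over hypo calls held in every alternative, but the counts depended on the settings. Hyper promoters numbered 13 with 1 CpG per 500 bp, 359 with a robust z value, 979 at 20 points and 2264 in windows of 500 bp on each side. Hypo promoters numbered 0, 10 and 7 in the first 3 of these, 40 at a minimum of 10 reads, 184 with no minimum, 276 with the mean of CpG levels, 65 for protein-coding genes only and 69 in windows of 2.5 kb. With at least 50% of the CpGs of the window measured, a setting chosen after seeing the data, 1951 were hyper, 46 hypo and the median was 1.81 points. The median promoter difference was 2.10 points with no minimum, 2.60 with the mean of CpG levels, 2.52 thinned to equal depth, 3.86 for protein-coding genes, 1.93 and 2.30 in the narrower and wider windows and 2.64 with at least 10 CpGs.

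Hyper bodies numbered 571 at 10 reads, 151 with 1 CpG per 500 bp, 50 with a robust z value, 121 at 20 points, 574 for protein-coding genes and 1375 over whole genes. Hypo bodies numbered 14, 5, 1, 0, 8 and 46 in the same settings, 38 with no read minimum and 15 with the mean of CpG levels. Median body differences were 1.63 points at 10 reads, 2.00 with the mean of CpG levels, 1.65 with 1 CpG per 500 bp, 1.89 for protein-coding genes and 1.92 over whole genes. Promoters with a larger difference at 30 ppm numbered 59 at 10 reads, 947 in the wider window and 119 after thinning, and those larger at 3 ppm 17, 509 and 54.

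Over the named genes and settings that could be scored, 1547 values were counted as kept, 446 lost and 6 gained a call, and 8 called values changed sign. Named genes with too few CpGs in a setting, such as Atf4, Tprgl and Dpysl4 at 10 reads, were left out there and not counted as lost. Settings that leave the reads of most named genes unchanged gave many kept values: 160 without strain-like CpGs, 154 without the chromosome 10 block, 150 for protein-coding genes only and 121 with at least 10 CpGs. Kept values stayed on the same side of the threshold and, if called, in the same direction. A value without a call in the main setting was counted as kept also where its sign changed. Calls were lost by 119 values with a robust z value (35 kept), 80 with 1 CpG per 500 bp (5 kept), 61 at 20 points (93 kept), 47 in the wider window (99 kept), 38 in the narrower (64 kept), 36 at 10 reads (66 kept) and 26 with no minimum (127 kept), but by 0 without strain-like CpGs or without chromosome 10 from 40 to 46 Mb. The 8 called values that changed sign were Grina with no read minimum (-5.90 points), Tprgl (4.23), Rpl21 (1.67) and the Prob1 body (2.27) with the mean of CpG levels, Prom1 (-2.50), Vangl2 (-8.17) and Fzd6 (-8.21) with 1 CpG per 500 bp, and Olfr392 in the wider window (-0.903). The cause was not tested, except that spaced CpGs leave fewer reads. Removal of CpGs that resemble strain variants (unmethylated in both WT and methylated in both KO libraries among methylated neighbours), 560 of 587 of which lay on chromosome 10 between 40 and 46 Mb, changed no named call.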
